A study of Mus musculus with 14 samples.

Results

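The clustered protocadherin genes are described here in bulk RNA from mouse hearts. They were taken as every row of the gene table whose symbol belongs to the Pcdha, Pcdhb, Pcdhga, Pcdhgb or Pcdhgc series, which gave 58 of 54532 genes. These were 14 alpha, 22 beta and 22 gamma rows, under 57 distinct symbols because Pcdha11 was attached to 2 gene identifiers. The study irradiated the chest of mice and sequenced cardiac RNA at an early and a late time, to follow radiation damage of the heart.

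All groups were wild-type male C57BL/6J mice aged 8 weeks at the start. IRR_1d (n = 3) and IRR_6w (n = 4) had received a local dose of 30 Gy of cobalt gamma rays to the front of the chest, with the rest of the body shielded by lead, and were sampled after 1 day and after 6 weeks. Control_1d (n = 3) and Control_6w (n = 4) had no irradiation and were sampled at the same times. The irradiated mice were under pentobarbital sodium anaesthesia during exposure, and whether the controls were anaesthetised is not given in the sources used here, so radiation and anaesthetic cannot be told apart. Each library came from the heart of 1 animal, no allele differed between the groups, and cardiomyocyte markers (Myh6, Tnnt2, Actc1, Ryr2 and Pln) had counts in every library. In such bulk RNA, fewer cells of a type and less RNA per cell cannot be told apart.

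Protocadherins of these clusters are cell-surface adhesion proteins of the cadherin superfamily that bind copies of themselves on neighbouring cells. They are best known in neurons, where each cell uses its own combination of isoforms and so recognises its own branches. An alpha or gamma gene has its own large first exon, which is spliced to constant exons shared by the whole cluster and encoding a common cytoplasmic end, whereas a beta gene is a single exon with no constant part. Which promoters are active is known to depend on CTCF and cohesin looping, on DNA methylation and on SMCHD1. Expression outside the nervous system is known but less studied.

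In mm10 the clusters lie in the order alpha, beta and gamma on chromosome 18, over 257.478, 259.542 and 180.081 kb. All 58 rows had the same coordinates and exon length as the GENCODE annotation of that build. There, all 14 alpha genes and 21 of the 22 gamma genes had 4 exons in their longest transcript and all 22 beta genes had 1. In the alpha genes a median of 53.61% of exon bases also belonged to another gene, and in the gamma genes 45.335%. By contrast, 19 of the 22 beta genes shared no exon base. A read inside the constant exons therefore fits many alpha or many gamma genes. How such reads were counted, and whether strand was used, is not given in the sources used here. Levels are compared between genes only as CPM, the count scaled by the library total, per kb of the exon that no other gene has on the same strand.

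Libraries held 13336746 to 16837265 counts. Some stood apart. In Control_1d replicate 1, IRR_6w replicate 3 and IRR_6w replicate 4, genes of ordinary low level were often at 0. For each library, the genes with a median of 2 to 5 CPM over all other libraries were taken. Of those genes, 30.7%, 21.6% and 8.62% had no count in these 3 libraries, against at most 1.98% in the others. The protocadherins showed the same, with 39, 31 and 26 of the 58 rows at 0 and no value between 0 and 13, 7 or 9 counts. Of the other libraries, Control_6w replicate 1 had 26 rows at 0 and the rest 11 to 17. The largest sums of markers of other tissues were in 3 further libraries. Thymus markers summed to 3107 CPM in Control_6w replicate 3, atrial markers to 3750 and lung epithelium markers to 419 CPM in IRR_6w replicate 1, and atrial markers to 1562 CPM in IRR_1d replicate 3. Brown fat markers summed to 863, 1240 and 429 CPM in these 3 libraries, in the same order, and to at most 315 CPM elsewhere. Among them Ucp1 was at 559, 808 and 231 CPM, and at 0 in every other library. The lung epithelium sum of IRR_6w replicate 1 was nearly all Scgb1a1, at 406 CPM. Sftpc, Sftpb, Sftpa1 and Sftpd were at 0.338, 2.10, 8.86 and 1.96 CPM in that library. Smaller sums were found in others. Atrial markers were at 450 CPM in Control_6w replicate 3. They were at 415 CPM in Control_1d replicate 2, against 32.8 and 29.8 CPM in the other hearts of its group. Testis germ cell markers were at 42.5, 28.9 and 23.3 CPM in Control_6w replicates 1 to 3 and below 1 CPM in the other libraries. Of the 7 listed genes, Mael (13.2 to 19.2 CPM) and Tssk2 (6.51 to 20.2 CPM) made up most of these 3 sums. In the same libraries Prm1 was at 2.77 to 3.09 CPM and Tnp2 at 0 to 0.922 CPM. Prm2, Tnp1 and Ldhc were at 0 there. Several of the values that moved most are also given without the 3 libraries with many zeros or without the 3 with the largest sums of other tissues' markers. Without the libraries with many zeros, IRR_6w keeps only replicates 1 and 2, and replicate 1 held the largest atrial, lung and brown fat sums. Control_6w replicate 1 is kept there. It had 5 of 32 usually counted members (median of at least 10 counts in the other libraries) at 0, against 4 of 31 in IRR_6w replicate 4.

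Cdkn1a, the p53 target that encodes the cell cycle inhibitor p21, was higher in every irradiated heart than in every control heart of the same time. It had 301 to 576 counts in Control_1d and 2129 to 3855 in IRR_1d, and 530 to 1477 in Control_6w and 2498 to 5429 in IRR_6w.

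The alpha cluster had almost no counts. It took 98 counts over all 14 libraries, or 0.412% of the 23761 counts of the whole family, and none of its 14 rows passed the filter on low counts. The 8 rows never counted were Pcdha1, Pcdha2, Pcdha4, Pcdha5, Pcdha6, Pcdha7, 1 of the 2 Pcdha11 rows and Pcdhac1. A count of 0 in 1 library allows up to 3 counts, which is 0.178 to 0.225 CPM depending on the library, by counting error alone. This floor is too low for the libraries with many zeros. It also does not cover reads that fit 2 genes, and 99.87% of the 150-base windows of Pcdha4's first exon, and 97.7% for the Pcdha11 row without counts, also occur in a transcript of another gene.

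Pcdhac2, a C-type gene at the 3′ end of the alpha cluster, held 54 of the 98 alpha counts. Its counts were 0, 0 and 5 in Control_1d, 10, 3 and 9 in IRR_1d, 0, 1, 0 and 9 in Control_6w, and 11, 6, 0 and 0 in IRR_6w. The groups overlapped at both times. Pcdha8 had 20 counts, of which 18 came from IRR_6w replicate 3, and the Pcdha11 row with counts had 10, of which 7 came from that same library. As summed CPM, alpha was 0.134 ± 0.233 (SD, n = 3) in Control_1d, 0.548 ± 0.234 (n = 3) in IRR_1d, 0.223 ± 0.319 (n = 4) in Control_6w and 0.934 ± 0.818 (n = 4) in IRR_6w, values of a few counts that overlapped between the groups at each time.

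The other clusters were both transcribed and took about equal shares of the counts, which are not scaled for exon length or shared exons. Beta took 11709 counts (49.3% of the family) and gamma 11954 (50.3%). Within beta the counts were uneven along the chromosome. The 3′ genes Pcdhb14 to Pcdhb22 held 82.7% of them and Pcdhb1 to Pcdhb13 held 17.3%. Within gamma, the A-type genes held 39.6%, the B-type genes 34.7% and the C-type genes 25.7%, of which Pcdhgc3 alone had 2870 of 3072 counts.

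Per kb of its own exon, Pcdhgc3 had the highest level of the family, with 4.05 CPM per kb averaged over the 14 libraries. Pcdhb17 followed with 2.11, Pcdhgb2 with 1.93, Pcdhb20 with 1.82 and Pcdhgb6 with 1.69 CPM per kb. In Control_6w these levels were 2.49 ± 0.748 for Pcdhgc3, 1.65 ± 0.453 for Pcdhb17, 1.20 ± 0.402 for Pcdhgb2, 0.781 ± 0.307 for Pcdhb20 and 1.20 ± 0.250 for Pcdhgb6 (SD, n = 4). The ranges of neighbours in this order overlapped in Control_6w, from Pcdhgc3 (1.67 to 3.19 CPM per kb) and Pcdhb17 (1.27 to 2.31) onwards, while Pcdhb17 lay above Pcdhb20 (0.462 to 1.20) in all 4 hearts of this group. The other C-type gamma genes were low, with 75 counts in all for Pcdhgc4, which is known to be needed for the survival of neurons, and 127 for Pcdhgc5. At the other end, Pcdhb1 had 1 count and Pcdhga10 had 5, and all exon bases of Pcdhga10 are shared with the constant exons or with the antisense gene Gm26672. Of the exon bases of Pcdhgc3, 38.53% are shared with genes on its own strand and a further 28.35% only with the antisense gene BC037039. Without strand, reads of such pairs cannot be told apart.

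**Figure D1:**
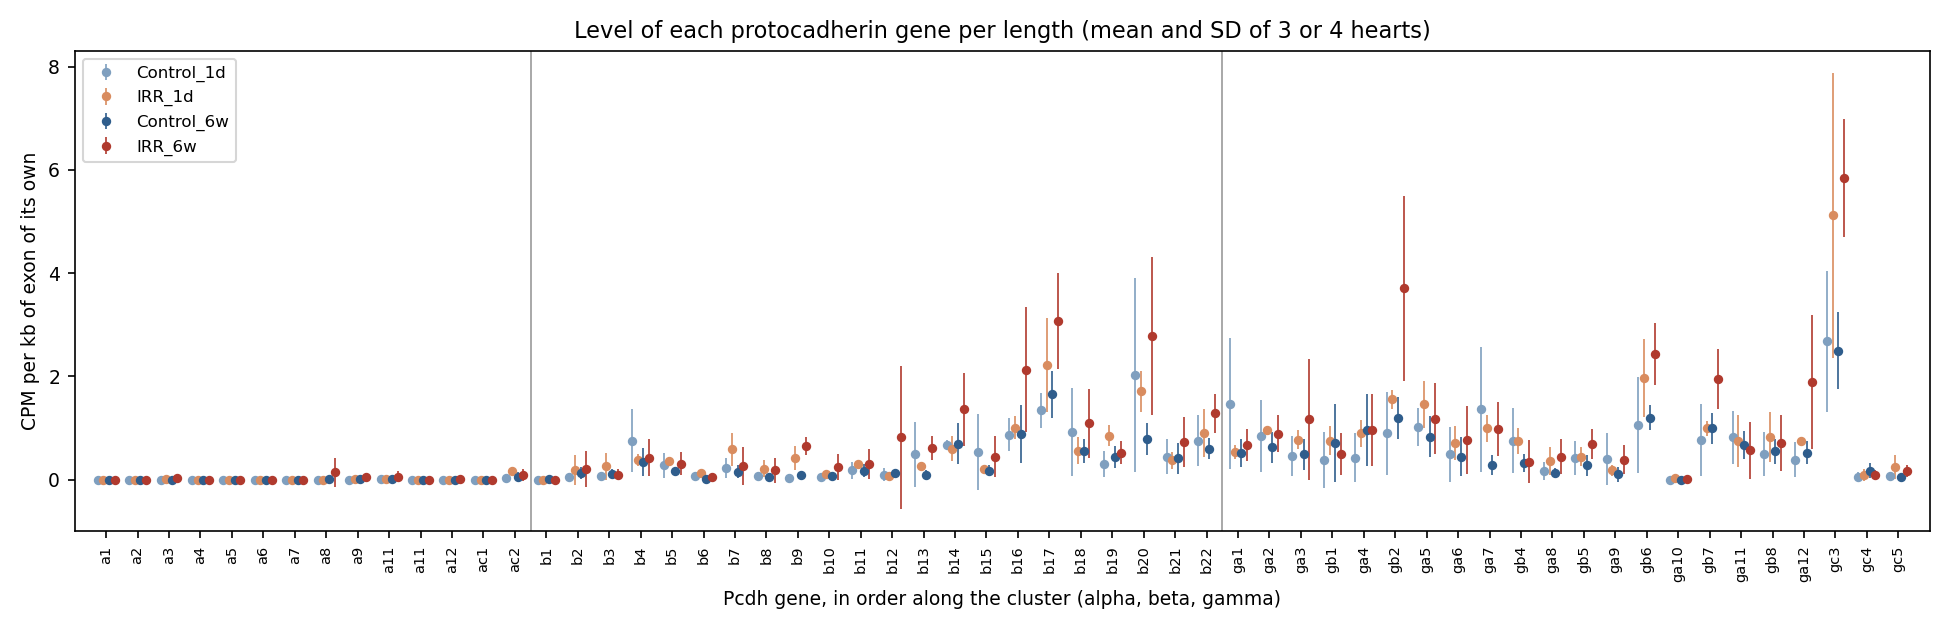
Level of each of the 58 protocadherin rows in CPM per kb of exon of its own (vertical axis) in order along the clusters (horizontal axis; grey lines separate alpha, beta and gamma). Points are the means and bars the SD of the hearts of each group; alpha genes lie at or near 0, the 3′ beta genes and the gamma genes lie higher, and Pcdhgc3 is highest, at 5.84 CPM per kb in IRR_6w.

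Cluster by cluster, the beta sum was 66.6, 34.5 and 40.4 CPM in Control_1d and 47.6, 41.3 and 75.7 CPM in IRR_1d. It was 57.0, 34.1, 23.4 and 38.7 CPM in Control_6w and 58.3, 58.6, 116 and 97.2 CPM in IRR_6w. The 1-day groups overlapped, while at 6 weeks every irradiated heart lay above every control heart, though by only 58.3 against 57.0 CPM at the nearest. The means gave a log2 ratio of 0.22 at 1 day and of 1.11 at 6 weeks. Without the 3 libraries that carried markers of other tissues, the 1-day ratio was -0.085, and without Control_1d replicate 1 it was 0.55. The 6-week ratio was 0.61 without the 3 libraries with many zeros, 2 of which held the highest IRR_6w sums.

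The gamma sum was 43.4, 34.4 and 60.9 CPM in Control_1d and 60.3, 43.2 and 84.0 CPM in IRR_1d. It was 36.0, 45.9, 23.0 and 50.3 CPM in Control_6w and 82.6, 68.5, 77.3 and 89.1 CPM in IRR_6w. Again the groups overlapped at 1 day only, and the log2 ratios of the means were 0.44 at 1 day and 1.03 at 6 weeks. The 1-day ratio was 0.16 without IRR_1d replicate 3 and 0.69 without Control_1d replicate 3. The 6-week ratio was 0.96 without the libraries with many zeros. At 6 weeks the A, B and C types of gamma had log2 ratios of 0.98, 0.99 and 1.17, and in the B and C types the irradiated hearts all lay above the controls. With Pcdhgc3 left out, gamma still ran from 49.1 to 72.0 CPM in IRR_6w and from 17.4 to 39.5 CPM in Control_6w.

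These sums depend on the scaling. Mitochondrial genes took 22.3 to 30.3% of the counts in Control_6w and 10.4 to 22.2% in IRR_6w, and with library totals in place of TMM factors the log2 fold change of the median gene moved from -0.089 to 0.14 at 6 weeks. On TMM-scaled library sizes the 6-week log2 ratio was 0.83 for beta, with the groups overlapping (from 49.4 CPM in IRR_6w and up to 58.9 CPM in Control_6w). For gamma it was 0.75, with no overlap (from 64.5 CPM in IRR_6w and up to 54.9 CPM in Control_6w). No p-value is given for a sum over the family.

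**Figure D2:**
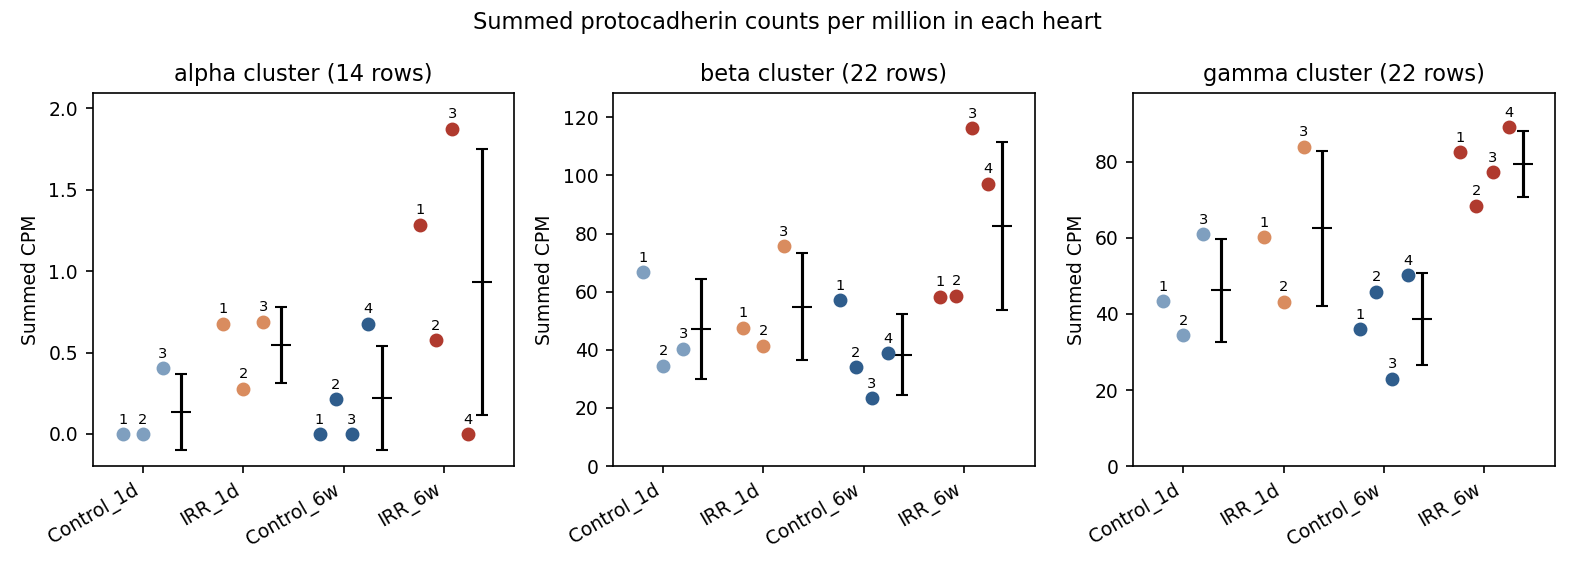
Summed CPM of each cluster in each heart (vertical axis, linear) by group (horizontal axis). Numbered points are replicates and the black marks are the mean and SD; at 6 weeks the gamma points of IRR_6w (68.5 to 89.1 CPM) lie above those of Control_6w (23.0 to 50.3 CPM), the beta points nearly touch, and alpha stays below 2 CPM.

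Gene by gene, edgeR called no protocadherin. Of 58 rows, 39 passed the filter on low counts (19 beta, 11 gamma A, 7 gamma B and 2 gamma C). In edgeR's quasi-likelihood test over 16034 genes, a call needed an adjusted p (Benjamini-Hochberg) below 0.05 together with a fold beyond 2 in either direction. In IRR_6w against Control_6w, 0 of 39 were called, against 0.256% of all genes tested. At an unadjusted p under 0.05, 4 were higher (Pcdhb9, Pcdhb13, Pcdhb20 and Pcdhgc3), against 5.43% of all genes tested, and 0 were lower, against 3.37%. With the fold limit as well it was 3 (all but Pcdhgc3), against 3.69%. DESeq2 and limma voom called 0 members as well, where they called 2.06% and 0.112% of all genes. In IRR_1d against Control_1d, edgeR called 0 of 39, against 0.0249% of all genes tested, as did DESeq2 (against 0.187%) and limma voom (against 0.0%), and 1 had an unadjusted p under 0.05 (Pcdhb9, higher, against 1.94%, or 1.56% with the fold limit).

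The direction at 6 weeks was mostly the same. The log2 fold change was above 0 for 33 of the 39 tested members (17 of 19 beta and 16 of 20 gamma), against 43.8% of all genes tested. The median was 0.70 for the members and -0.089 for all genes. In limma voom it was above 0 for 27 of 39, with medians of 0.37 and -0.13. At 1 day it was above 0 for 26 of 39, against 55.1%, with medians of 0.29 and 0.062. The members' 1-day median was 0.75 in limma voom, 0.84 with the replicate number as a block, 0.80 without Control_1d replicate 3, 0.47 without Control_1d replicate 2 and 0.53 without IRR_1d replicate 2. It was 0.23 without Control_1d replicate 1. Without the 3 libraries with other tissues' markers it was also 0.23, with 21 of 37 above 0, and without the 3 with many zeros 0.23, with 26 of 40. Without the 3 libraries with many zeros the 6-week count was 32 of 40 tested members, and without the 3 that carried markers of other tissues it was 27 of 37. Genes of 1 family in 1 locus do not vary independently of each other, so these counts are given as a description. In CPM, 9 members had no overlap between the 6-week groups, all higher in IRR_6w (Pcdhb9, Pcdhb13, Pcdhb20, Pcdhb22, Pcdhga7, Pcdhgb2, Pcdhgb6, Pcdhgb7 and Pcdhgc3), against 6.63% of all genes tested. On TMM-scaled CPM 4 did (Pcdhb9, Pcdhb13, Pcdhgb7 and Pcdhgc3), against 4.07%. At 1 day 3 did in CPM (Pcdhb9, Pcdhb19 and Pcdhga12), against 7.28%.

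**Figure D3:**
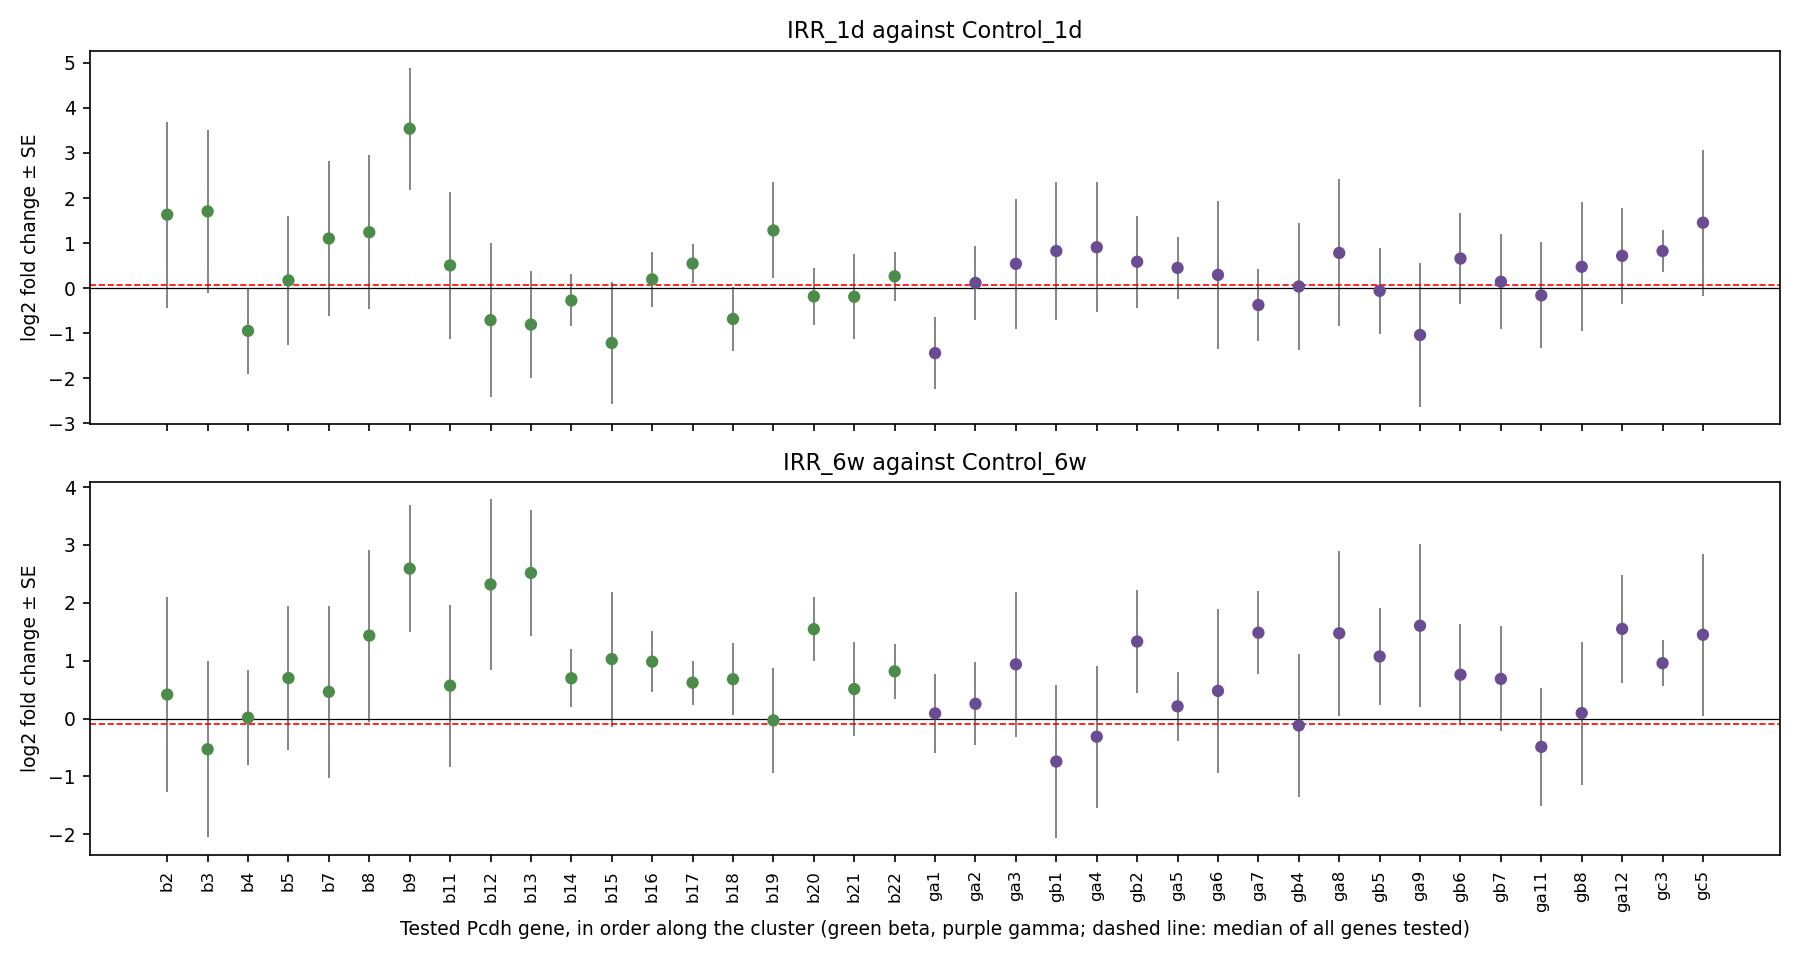
The log2 fold change with its standard error (vertical axes, edgeR) of the 39 tested protocadherin genes in chromosomal order (horizontal axis), after 1 day above and after 6 weeks below. Green points are beta and purple points gamma genes, and the dashed line is the median of all genes tested; 26 points lie above 0 in the upper panel and 33 in the lower, most with bars that reach 0 or beyond.

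Pcdhb9, a gene of the sparsely counted 5′ part of the beta cluster (chr18:37400855-37403909, a single exon of 3055 bases shared with no other gene), had the largest log2 fold change of the tested members at both times. Its counts were 0, 1 and 3 in Control_1d and 12, 15 and 30 in IRR_1d. They were 0, 5, 3 and 8 in Control_6w and 28, 23, 36 and 31 in IRR_6w. All 7 irradiated hearts lay above all 7 control hearts. This held in both libraries of IRR_6w in which many other members were at 0. In CPM the gene was at 0.0916 ± 0.102 (SD, n = 3) in Control_1d, 1.28 ± 0.696 (n = 3) in IRR_1d, 0.261 ± 0.212 (n = 4) in Control_6w and 1.98 ± 0.518 (n = 4) in IRR_6w.

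Fitted with edgeR, its log2 fold change was 3.54 (SE 1.35, unadjusted p = 0.0200, adjusted p = 1.0) at 1 day and 2.59 (SE 1.09, unadjusted p = 0.0322, adjusted p = 0.501) at 6 weeks. With so few control counts these fitted folds depend on the prior count. Averaged over both times it was 3.06 (SE 0.871, unadjusted p = 0.00330, edgeR adjusted p = 0.266). DESeq2 gave 3.15 for this average with an adjusted p of 0.00793, so that the gene was called by that tool and not by edgeR or limma voom (limma voom adjusted p = 0.156). For this average DESeq2 called 184 of the 16034 genes (1.15%), limma voom 24 (0.15%) and edgeR 45. Without the 3 libraries with many zeros the edgeR value was 2.67 (adjusted p = 0.439), and without the 3 with other tissues' markers it was 2.79 (adjusted p = 0.704). In edgeR without this last set, the log2 fold change was 3.15 at 1 day and 2.44 at 6 weeks, with adjusted p of 1.0 and 0.624. The rule for the family names this gene, which had been seen in earlier results of these data.

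Pcdhgc3, the C-type gamma gene that led the family, had 121, 66 and 208 counts in Control_1d and 261, 124 and 395 in IRR_1d. It had 94, 146, 86 and 175 counts in Control_6w and 374, 303, 228 and 289 in IRR_6w. The groups overlapped at 1 day and not at 6 weeks, where the lowest irradiated heart had 228 counts and the highest control heart 175. Its level was 8.43 ± 2.53 CPM in Control_6w and 19.7 ± 3.85 CPM in IRR_6w (SD, n = 4), and edgeR gave a log2 fold change of 0.96 (SE 0.398, unadjusted p = 0.0301, adjusted p = 0.489). At 1 day the log2 fold change was 0.82 (SE 0.458, unadjusted p = 0.0935, edgeR adjusted p = 1.0). Unlike much of the family, this gene had counts in all 14 libraries, and its log2 fold change at 6 weeks was 1.19 without the libraries with many zeros. Without the 3 libraries with other tissues' markers it was 0.62 (edgeR adjusted p = 0.655) and 0.45 at 1 day. With single libraries left out, the 1-day value ran from 0.45 to 1.36, with unadjusted edgeR p from 0.0174 to 0.387.

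Pcdhb20, in the 3′ part of the beta cluster (chr18:37504264-37507822), had 215, 33 and 66 counts in Control_1d, 101, 66 and 108 in IRR_1d, 58, 36, 25 and 43 in Control_6w, and 69, 96, 216 and 212 in IRR_6w. The 6-week groups did not overlap in CPM but did on TMM-scaled CPM, and the highest value of all control hearts was in Control_1d replicate 1. The log2 fold change at 6 weeks was 1.55 (SE 0.556, unadjusted p = 0.0145, edgeR adjusted p = 0.379). Both high IRR_6w values, and the high Control_1d value, were from the libraries with many zeros, and without those 3 libraries it was 0.77 (edgeR adjusted p = 0.779).

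Pcdhb13 had 65, 3 and 11 counts in Control_1d, 11, 12 and 19 in IRR_1d, 0, 11, 4 and 4 in Control_6w, and 16, 39, 42 and 39 in IRR_6w. Its 6-week log2 fold change was 2.52 (SE 1.09, unadjusted p = 0.0356, edgeR adjusted p = 0.514), and at 1 day the groups overlapped, with a log2 fold change of -0.81 (SE 1.18). The 1-day sign rested on Control_1d replicate 1, which held 65 of the group's 79 counts, and without it the log2 fold change was 0.78. The 6-week value was 2.27 without the libraries with many zeros (edgeR adjusted p = 0.756).

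**Figure D4:**
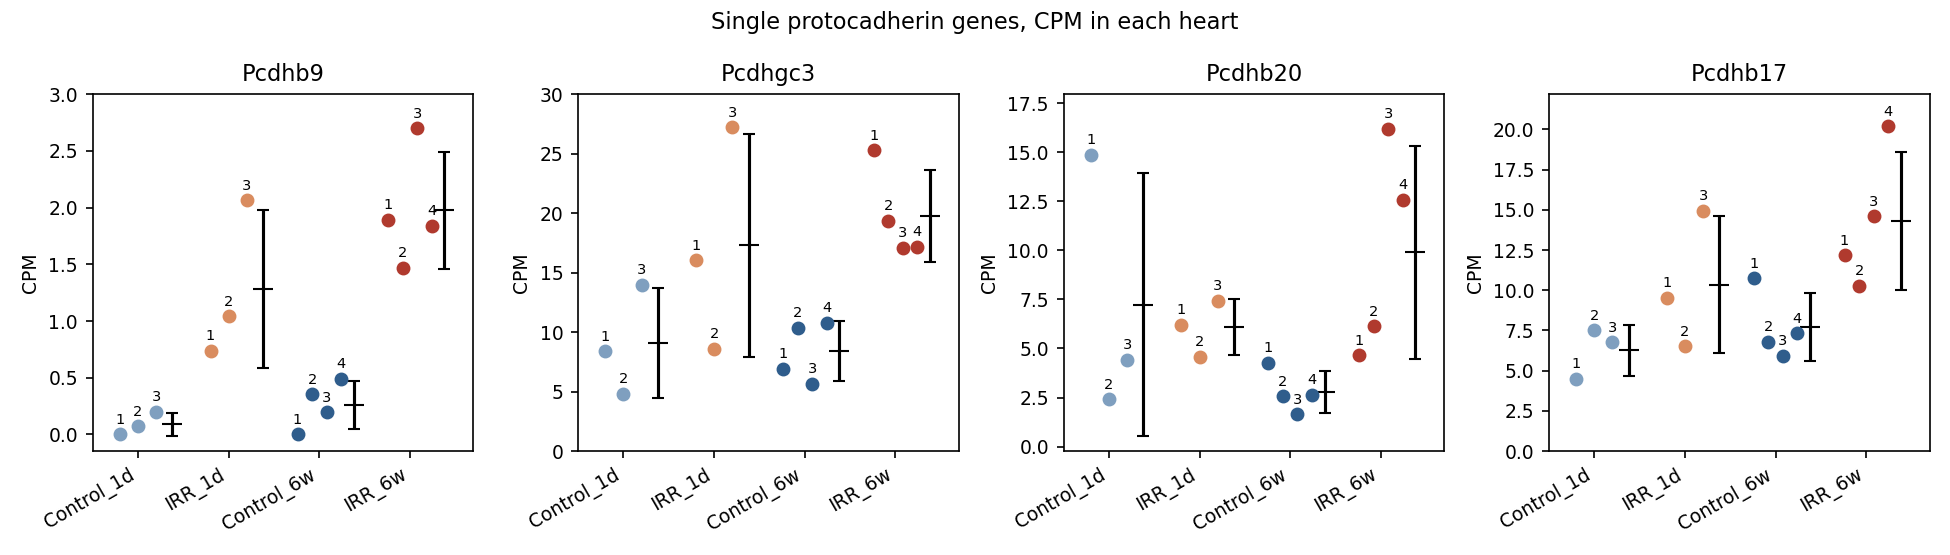
CPM of 4 protocadherin genes (vertical axes, linear) in each heart by group (horizontal axes). Numbered points are replicates and black marks the mean and SD; Pcdhb9 separates irradiated from control hearts at both times, Pcdhgc3 and Pcdhb20 at 6 weeks only, and Pcdhb17 overlaps at both times.

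The beta genes Pcdhb17, Pcdhb14 and Pcdhb16 overlapped between the groups. Pcdhb17 had 65, 103 and 101 counts in Control_1d and 155, 94 and 217 in IRR_1d. At 6 weeks it had 146, 96, 90 and 119 counts in Control_6w and 180, 161, 195 and 340 in IRR_6w, and in CPM the highest control, 10.7, exceeded the lowest irradiated heart, 10.3. Its log2 fold change was 0.55 (SE 0.440) at 1 day and 0.62 (SE 0.381, unadjusted p = 0.124, edgeR adjusted p = 0.701) at 6 weeks. The 1-day value ran from 0.25 to 0.88 with single libraries left out. Pcdhb14 had 0.70 (SE 0.499) and Pcdhb16 0.98 (SE 0.531) at 6 weeks, and in both the highest values were those of IRR_6w replicates 3 and 4, at 274 and 191 counts and at 255 and 222 counts. Without the libraries with many zeros, which include both of these, the values were 0.35 for Pcdhb17, 0.17 for Pcdhb14 and 0.20 for Pcdhb16.

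The B-type gamma genes Pcdhgb2 and Pcdhgb6 did not overlap at 6 weeks in CPM. Pcdhgb2 ran from 1.71 to 4.12 CPM in Control_6w and from 5.14 to 15.5 CPM in IRR_6w, and Pcdhgb6 from 2.17 to 3.55 CPM and from 4.10 to 7.42 CPM. Their 6-week log2 fold changes were 1.33 (SE 0.886, edgeR adjusted p = 0.729) and 0.76 (SE 0.877, edgeR adjusted p = 0.854). Both genes were at 0 in Control_1d replicate 1 and had 42 to 68 counts in each of the other controls but Control_6w replicate 3, at 26 and 33 counts. Without the libraries with many zeros, the 6-week values were 0.68 for Pcdhgb2 and 0.91 for Pcdhgb6 (edgeR adjusted p = 0.779 and 0.747).

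Between the times, the control hearts gave 0 calls among the 39 members, and 0.0% of all genes tested were called. At an unadjusted p under 0.05, 2 members were lower in Control_6w than in Control_1d in edgeR (Pcdhga7 and Pcdhb20), against 1.75% of all genes tested (1.03% with the fold limit), and DESeq2 and limma voom called 0 members, against 0.168% and 0.0% of all genes. Pcdhga7, an A-type gamma gene, had 122, 17 and 44 counts in Control_1d, 37, 44 and 56 in IRR_1d, 7, 23, 5 and 16 in Control_6w, and 28, 27, 70 and 54 in IRR_6w. Its log2 fold change between the controls was -2.22 (SE 0.766, unadjusted p = 0.0116, edgeR adjusted p = 0.902), and -1.48 without Control_1d replicate 1 (edgeR adjusted p = 1.0). That of Pcdhb20 was -1.35 (SE 0.586, unadjusted p = 0.0369, edgeR adjusted p = 0.902) and -0.55 without Control_1d replicate 1, which had the highest control count of both genes. Of the 39 members, 11 had a log2 fold change above 0 between the controls, against 59.1% of all genes, with a median of -0.34. This direction did not hold throughout, since 20 of 39 were above 0 in limma voom (median 0.044) and 23 of 41 without Control_1d replicate 3 (median 0.065), and without Control_6w replicate 3 it was 17 of 39 (median -0.15) and without Control_1d replicate 2 it was 18 of 41.

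In IRR_6w against IRR_1d, 0 members were called, against 0.0374% of all genes tested, and at an unadjusted p below 0.05 there were 0 higher (4.2% of all genes) and 0 lower (1.6%). In this comparison 20 of 39 log2 fold changes were above 0, against 48.5%, with a median of 0.0070. The median was 0.30 without IRR_1d replicate 3 (26 of 40 above 0), -0.14 without IRR_1d replicate 2 (17 of 41), -0.24 in limma voom (14 of 39) and 0.31 with library totals in place of TMM factors (26 of 39). In the test of whether the irradiation effect differed between the times, edgeR called 0 members, against 0.0% of all genes, as did DESeq2 (against 0.268%) and limma voom (against 0.0%). By unadjusted edgeR p, 0 members were higher (2.13% of all genes) and 0 lower (1.01%), and 27 of 39 values were above 0, against 41.4%, with a median of 0.40. The direction turned in limma voom, with 14 of 39 above 0 and a median of -0.61, and with the replicate number as a block, with 15 of 39 and a median of -0.24. With single libraries left out, the edgeR median ranged from 0.031 without Control_1d replicate 3 to 0.75 without IRR_1d replicate 3. For the average irradiation effect over both times edgeR called 0 members, against 0.281% of all genes, and Pcdhb9 and Pcdhgc3 had an unadjusted p under 0.05, both higher, against 5.25%. Of these Pcdhb9 also passed the fold limit, against 2.65%.

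Marker sums of cell types of the heart were compared between the 6-week groups. The 6 fibroblast markers (Pdgfra, Tcf21, Col1a1, Dcn, Lum and Col3a1) summed to 943 to 1883 CPM in Control_6w and 2156 to 3219 CPM in IRR_6w, and to 1511 to 2772 and 1856 to 4560 CPM in Control_1d and IRR_1d. The 5 macrophage markers summed to 123 to 232 CPM in Control_6w and 425 to 689 CPM in IRR_6w, and in both lists the 6-week groups did not overlap. Among the fibroblast markers, Col1a1, Col3a1 and Lum did not overlap, while Pdgfra (33.8 to 96.3 and 51.1 to 71.7 CPM), Dcn (545 to 1226 and 978 to 1373 CPM) and Tcf21 (2.83 to 8.76 and 6.18 to 45.0 CPM) did. Without both collagens the fibroblast sum overlapped as well (666 to 1459 and 1203 to 1648 CPM). The sums of Schwann cell and neural markers (62.4 to 133 and 91.6 to 339 CPM), cardiomyocyte markers (4177 to 25935 and 8478 to 21173 CPM), endothelial markers (564 to 1386 and 1034 to 1845 CPM) and pericyte and smooth muscle markers (993 to 1884 and 1022 to 2382 CPM) overlapped. All these markers were among lists chosen with earlier results known, and their part in the protocadherin values was not tested.

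Set against the fibroblast markers, the family gave a ratio that varied less between hearts than its own sum. The sum of all 58 rows was 93.5 ± 21.8, 118 ± 38.6, 77.3 ± 21.3 and 163 ± 33.1 CPM in Control_1d, IRR_1d, Control_6w and IRR_6w. Per 1000 CPM of fibroblast markers it was 49.4 ± 12.2, 44.9 ± 9.37, 53.9 ± 5.72 and 58.6 ± 4.19. The sum varied 4.21-fold over the 14 libraries and this ratio 1.79-fold. The range depended on the list used. Per macrophage markers the ratio varied 2.24-fold, per endothelial markers 2.92-fold, per pericyte and smooth muscle markers 2.97-fold, per Schwann cell and neural markers 3.7-fold, and it varied more than the sum per cardiomyocyte markers (5.43-fold), mesothelium markers (14.1-fold), brown fat markers (104-fold) and atrial markers (199.8-fold). The collagen genes Col1a1 and Col3a1 themselves had higher CPM in every IRR_6w heart than in every Control_6w heart. With them left out of the list the ratio was 79.7 ± 29.4, 75.3 ± 12.9, 74.2 ± 9.30 and 113 ± 21.9, and its 6-week groups did not overlap (86.3 to 136 against 63.7 to 84.5). With the collagens left out it varied 2.52-fold. These ratios were chosen after seeing the data.

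**Figure D5:**
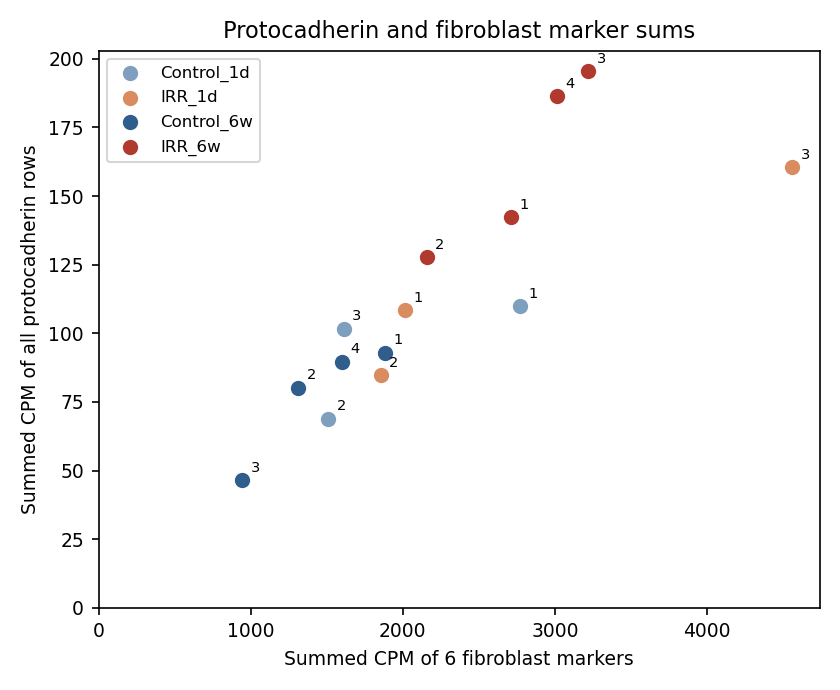
Summed CPM of all 58 protocadherin rows (vertical axis) against summed CPM of 6 fibroblast markers (horizontal axis), 1 point per heart with its replicate number. The hearts with the lowest sums (Control_6w replicate 3, at 943 and 46.4 CPM) and with high sums (IRR_6w replicate 3, at 3219 and 195 CPM) are the same on both axes, and IRR_1d replicate 3 has the highest fibroblast sum.

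Genes around the family were not called. The locus held 64 other genes between or within 500 kb of the clusters, of which 28 were tested, 0 were called (0.256% of all genes at 6 weeks) and 9 had a log2 fold change above 0 at 6 weeks, against 43.8% of all genes. The median was -0.20, against -0.089 for all genes. Taf7, a single-exon gene of the general transcription machinery that lies between the beta and gamma clusters, had 17.1 ± 6.57, 9.11 ± 2.24, 19.6 ± 8.35 and 12.4 ± 5.52 CPM in the 4 groups. Its log2 fold change averaged over both times was -0.92 (SE 0.284, unadjusted p = 0.00591, edgeR adjusted p = 0.337), opposite in sign to most of its protocadherin neighbours. Gnpda1, an enzyme of hexosamine metabolism, had a 6-week log2 fold change of 0.77 (edgeR adjusted p = 0.510), and 0.012 without the libraries with many zeros (edgeR adjusted p = 0.995).

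Of 25 genes of the machinery known to act on these promoters, or partners of it, all were tested, 0 were called at either time (0.0249% and 0.256% of all genes at 1 day and 6 weeks), and 2 had a log2 fold change above 0 at 6 weeks, against 43.8% of all genes (median -0.31, against -0.089). Those with an unadjusted edgeR p under 0.05 at 6 weeks were Cdca7, Uhrf1 and Ctcf, at -5.03, -3.30 and -1.11. Without Control_6w replicate 3, the library with thymus markers, they were at -0.998, 0.16 and -0.27, with unadjusted p of 0.167, 0.863 and 0.208. The count above 0 and the median over the 25 genes are given only with that library included, and its part in them was not tested. Of 24 intracellular partners (kinases, WAVE complex subunits, and the proteases that cut protocadherins) 0 were called, against the same shares of all genes, and 15 were above 0 at 6 weeks (median 0.13). Adam10, the sheddase that cleaves protocadherin ectodomains, had a log2 fold change of 0.76 at 6 weeks (unadjusted p = 0.0254, edgeR adjusted p = 0.461) and of 0.13 without the libraries with many zeros (edgeR adjusted p = 0.921), and Prkca, a kinase, had -0.73 at 1 day (unadjusted p = 0.00960, edgeR adjusted p = 1.0) and -0.47 without Control_1d replicate 1. Of 11 non-clustered protocadherins 8 were tested and 0 were called, against those same shares. Their median log2 fold change at 6 weeks was 0.0057, against -0.089 for all genes, and 4 of 8 were above 0, against 43.8%.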

How the data were processed

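Hearts of 14 mice were profiled by paired-end RNA sequencing of total RNA. According to the study's methods and processing notes, the authors checked reads with FastQC 0.11.8, trimmed them with Trim Galore 0.6.1, aligned them to mm10 with STAR 2.5.0a and used HTSeq for gene counts. The authors deposited raw counts for 54532 genes, with coordinates and lengths. The sources used here do not state strandedness or counting mode.

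From these counts, genes passing filterByExpr (16034) were fitted with edgeR 4.0.16 in R 4.3.3, with TMM scaling, 1 model of the 4 groups and the quasi-likelihood test. Adjusted p-values (Benjamini-Hochberg) are over all tested genes. The method was tested on simulated data. DESeq2 1.42.0 and limma 3.58.1 (voom), other scalings and filters, a replicate block and leaving out libraries were the alternatives. CPM is the count over the library total. Libraries held 13336746 to 16837265 counts, and intervals from counting cover counting error only. Replicates were separate animals, and no pair agreed within sampling noise.

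Members and lists were chosen with earlier results of these data known. Named genes were those called, Pcdhb9, and the 3 of each cluster with the highest mean CPM, not divided by exon length. Also named were up to 3 per direction and comparison with the smallest unadjusted p under 0.05. Up to 2 of each other list with the smallest p were named as well. Pcdhb13, Pcdhgb7, Uhrf1 and other genes outside this rule were named after their values were seen. The sequences of the members are not printed.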

Additional observations from a re-analysis of the deposited data

Results flagged for a closer look

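Dixon's test was run on 30 groups of 4 hearts (the named protocadherin genes in Control_6w and IRR_6w and the cluster sums) and it marked 5 of them. For normally distributed values chance marks about 1 in 20 such groups. That rate does not hold where all hearts but 1 are at 0, since any count in the remaining heart is then marked. All 5 were alpha genes with almost no counts, where 1 heart had counts and the others had none or nearly none. Pcdhac2 was at 0.554 CPM in Control_6w replicate 4, against at most 0.0710 CPM in the others. Pcdha8 was at 0.123 CPM in Control_6w replicate 4 and at 1.35 CPM in IRR_6w replicate 3, with 0 in the other hearts of each group. Pcdha11 was at 0.0710 CPM in Control_6w replicate 2 and at 0.525 CPM in IRR_6w replicate 3, again with 0 in the others. IRR_6w replicate 3 is 1 of the 3 libraries with many zeros, in which no protocadherin had a count between 0 and 7.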

How the results depend on the processing

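No member was called by edgeR under any alternative that kept the adjusted threshold. With the fold limit kept and p left unadjusted (below 0.05), 1 member was called at 1 day, 3 at 6 weeks, 1 on average over both times and 2 between the controls, and DESeq2 called 1 on average (Pcdhb9, log2 fold change 3.15). These unadjusted counts moved with single libraries left out. The 6-week count was 6 of 41 tested members without Control_1d replicate 1 and 1 of 39 without Control_6w replicate 3. The 1-day count was 3 without Control_1d replicate 3 and 0 without Control_1d replicate 2 or without IRR_1d replicate 3. The share of all genes at this unadjusted limit is not given for these fits. With the adjusted threshold, the calls over all genes at 6 weeks were 64 and 36 in these fits, against 41 in the main fit. At 1 day they were 3, 0 and 1 in the same order, against 4. Between the controls, 11 members were above 0, but 18 without Control_1d replicate 2, 23 without Control_1d replicate 3, 17 without Control_6w replicate 3, 16 without the 3 libraries with other tissues' markers (Control_6w replicate 3, IRR_6w replicate 1 and IRR_1d replicate 3) and 20 in limma voom (range over single libraries left out 8 to 23). For the difference of the irradiation effect between the times 27 were above 0, but 14 in limma voom. The beta log2 ratio at 1 day was -0.085 without those 3 libraries, -0.026 with TMM scaling as well, and -0.085 to 0.55 with single libraries left out, the lowest without IRR_1d replicate 3. The gamma ratio at 6 weeks was 0.51 with TMM scaling and without those same 3 libraries. With single libraries left out, the members above 0 at 6 weeks ranged from 27 to 35 and at 1 day from 24 to 31. The ratios at 6 weeks then ranged from 0.90 to 1.36 for beta and from 0.85 to 1.18 for gamma. The cause of these shifts was not tested.

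Replicate numbers did not pair the samples, since correlations of same-numbered deviations ran from -0.359 to 0.329. A fit with the replicate number as a block called 0 members, with 27 of 39 above 0 at 6 weeks, 30 of 39 at 1 day and 15 of 39 for the difference between the times. No value could be given for alpha over tested members, since none passed the filter. Low counts limit most members, and alpha altogether. The alternatives without the libraries with many zeros were added after seeing the data.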
